A study of Mus musculus with 24 samples.

Results

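The 9 genes described here encode the enzymes that make and break down polyamines, the proteins that control the first of these enzymes, and the enzyme that uses spermidine to modify a translation factor. They are Odc1, Amd1, Srm, Sms, Sat1, Smox, Oaz1, Azin1 and Dhps, and they were chosen by symbol as 9 of the 54446 Ensembl gene identifiers in the deposited table of read counts. Messenger RNA was sequenced from splenic CD4+ T cells of 6 mice on the C57BL6 background, 3 of them wild type by their labels (WT, mice 1, 3 and 4) and 3 lacking the DNA sensor AIM2 by theirs (Aim2-/-, mice 1, 2 and 4). From each mouse, cells were sequenced without stimulation (0 h) and after 3, 6 and 24 h with anti-CD3/CD28 antibodies, which gives 24 libraries in 8 groups of 3 mice. The cells were taken by immunomagnetic negative selection, all groups share the strain background, the ages are not given in the sources used here, and no cell type restriction of the deficiency is stated.

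Polyamines are small, positively charged molecules that bind nucleic acids, and proliferating cells need them. Ornithine decarboxylase turns ornithine into putrescine, and spermidine synthase and spermine synthase then add aminopropyl groups supplied by S-adenosylmethionine decarboxylase. Spermidine also donates the group that deoxyhypusine synthase places on eIF5A, which deoxyhypusine hydroxylase completes to hypusine, and T cells that become activated are known to raise polyamine synthesis.

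Total counts were similar across libraries, from 19715161 to 21627018, and all 9 genes passed the filter on low counts that left 15325 genes to test. The values given are CPM, read counts per 1000000 counts of a library after TMM scaling, so a lower value is a smaller share of the library, and fewer cells of a type and less RNA per cell cannot be told apart. A share can also fall where the rest of the library rises. Aim2 itself stood at 67.5 and 74.95 CPM in the WT mice 4 and 3 at 0 h and between 15.7 and 20.1 CPM in the Aim2-/- mice. The mouse labelled WT 1 had 21.5 CPM and stayed near the Aim2-/- mice at 3, 6 and 24 h, which goes against its label. The genotype differences called below by the reported model, and some others, are therefore also given without it. The 6 CD4 T cell markers (Cd4, Cd3d, Cd3e, Cd3g, Lck and Cd28) summed to between 2291 and 3777 CPM in the 24 libraries, and the 2 CD8 markers to between 7.74 and 15.6 CPM. Marker sums moved with stimulation: those of CD4 T cells were between 3451 and 3777 CPM at 0 h and between 2291 and 2459 CPM at 24 h, those of NK cells between 16.1 and 26.4 and between 2.22 and 9.48 CPM, and those of myeloid cells in WT mice between 25.8 and 50.2 and between 9.19 and 19.6 CPM. Their part in the changes with stimulation was not tested.

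Stimulation moved the 9 genes in opposite directions. By 24 h the messages for spermidine synthase, AdoMet decarboxylase, spermine synthase, antizyme inhibitor and deoxyhypusine synthase had risen in both genotypes. Those for ornithine decarboxylase, the acetyltransferase Sat1, spermine oxidase and antizyme had fallen. In WT cells 5 of the 9 genes rose and 4 fell at 24 h by edgeR's quasi-likelihood test at an adjusted p under 0.05, while 36.6% of all genes tested rose and 34.8% fell. In Aim2-/- cells the counts were also 5 and 4, with 36.8% of all genes rising and 33.5% falling. The median absolute log2 change over the 9 genes was 1.16 in WT and 1.15 in Aim2-/- cells, beside 1.03 and 0.95 over all genes tested.

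At earlier times fewer of the genes had moved. At 3 h in WT cells 2 rose and 3 fell, where 16.2% of all genes rose and 16.4% fell, and in Aim2-/- cells 1 rose and 2 fell, where 16.1% rose and 14.6% fell. With mouse as a block 7 genes were called at 3 h in WT cells, as falls of Sms (adjusted p = 0.0294) and Smox (adjusted p = 0.0448) were added. At 6 h the WT counts were 2 and 4, beside 26.4% and 24.8% of all genes, and the Aim2-/- counts were 3 and 4, beside 28.5% and 22.7%. Between 3 and 6 h 8 of the 9 genes changed in WT and 6 in Aim2-/- cells, where 25.7% and 23.3% of all genes changed in either direction. With mouse as a block these counts were 9 and 7, with Dhps (0.22, adjusted p = 0.0442) added in WT and Sms (0.37, adjusted p = 0.0128) in Aim2-/- cells. Between 6 and 24 h the counts were 7 and 8, with 57.6% and 54.3% of all genes changing. The WT count at 3 h was 2 without the mouse labelled WT 1 and 3 without WT mouse 4, and the Aim2-/- count was 1 without mouse 1 and 2 without mouse 2.

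**Figure D1:**
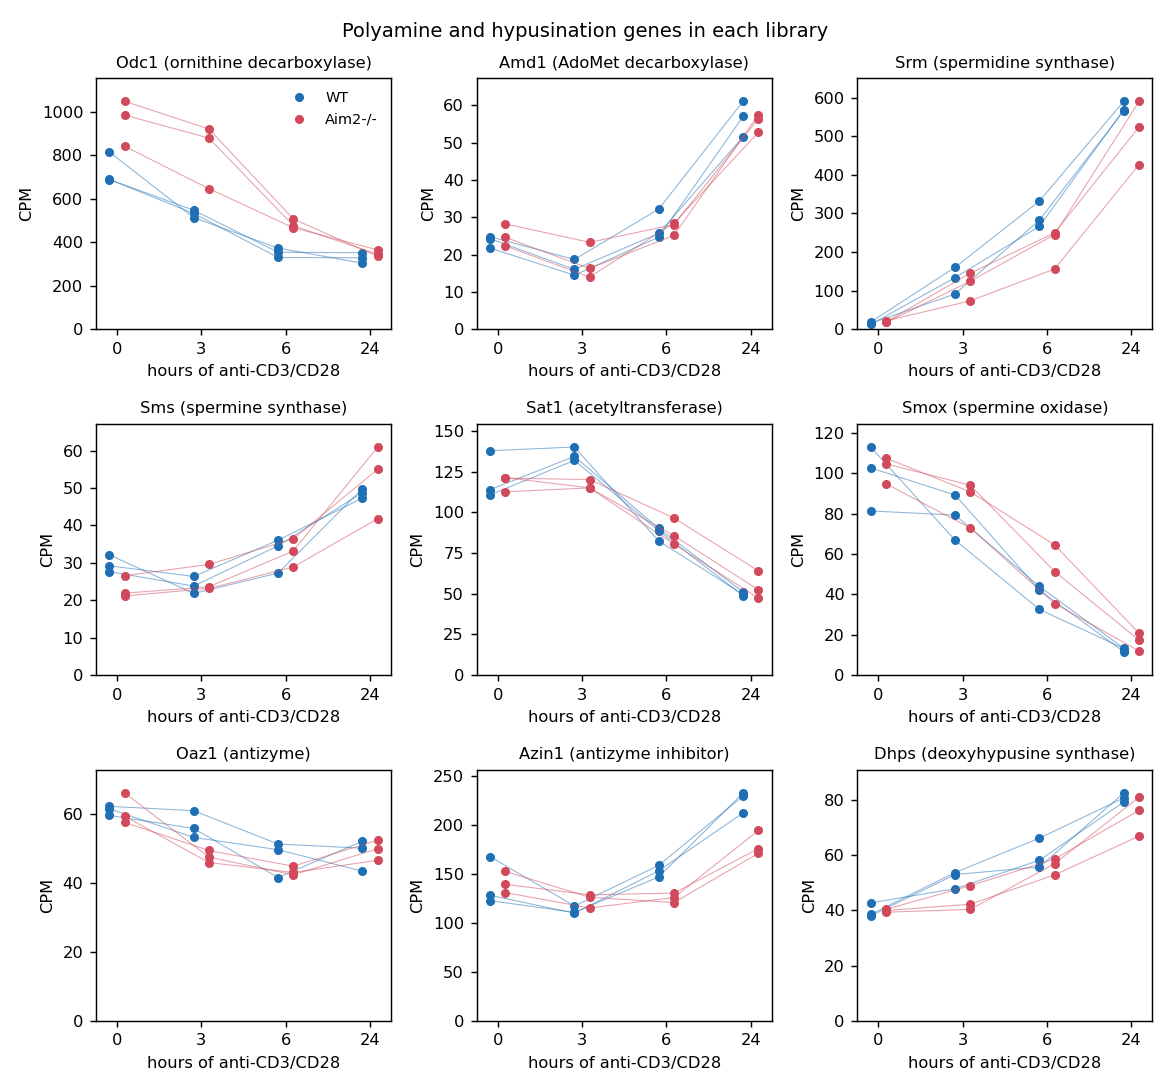
CPM of the 9 genes (vertical axes, each from 0) at 0, 3, 6 and 24 h of anti-CD3/CD28 (horizontal axes, not to scale in time), 1 point for each library and 1 line for each mouse, with WT in blue and Aim2-/- in red. Srm rose from under 22 CPM in all 6 mice at 0 h to at least 427 CPM at 24 h, while Odc1 fell in all 6 mice.

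Promoter windows are shown for genes with contrasting courses: Odc1, Smox, Sms and Eif5a, the target of deoxyhypusine synthase. Each runs from 250 bases before to 50 bases after a RefSeq transcription start (build GRCm38.p6), 5′ to 3′ on the strand of the gene. Capitals mark the E-box letters CACGTG, which Myc and related factors are known to bind, and the GC box letters GGGCGG or their reverse complement CCGCCC, searched on both strands. Windows overlapped for neighbouring starts, and 7 of the 9 genes matched the table, with 8 windows. Those of Srm and Azin1 are not shown.
Odc1, chr12:17544623-17544922, plus strand: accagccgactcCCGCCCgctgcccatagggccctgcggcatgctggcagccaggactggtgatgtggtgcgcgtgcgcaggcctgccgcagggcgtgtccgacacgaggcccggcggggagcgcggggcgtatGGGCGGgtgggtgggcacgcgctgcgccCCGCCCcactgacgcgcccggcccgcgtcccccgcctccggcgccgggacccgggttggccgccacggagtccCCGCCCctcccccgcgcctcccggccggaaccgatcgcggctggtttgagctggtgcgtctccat
Smox, chr2:131491612-131491911, plus strand: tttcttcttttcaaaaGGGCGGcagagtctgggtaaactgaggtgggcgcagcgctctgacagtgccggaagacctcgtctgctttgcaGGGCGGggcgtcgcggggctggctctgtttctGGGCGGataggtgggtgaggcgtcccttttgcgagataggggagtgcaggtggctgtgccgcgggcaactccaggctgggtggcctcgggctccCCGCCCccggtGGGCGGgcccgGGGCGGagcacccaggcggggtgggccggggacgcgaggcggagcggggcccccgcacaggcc
Sms, chrX:157492238-157492537, minus strand: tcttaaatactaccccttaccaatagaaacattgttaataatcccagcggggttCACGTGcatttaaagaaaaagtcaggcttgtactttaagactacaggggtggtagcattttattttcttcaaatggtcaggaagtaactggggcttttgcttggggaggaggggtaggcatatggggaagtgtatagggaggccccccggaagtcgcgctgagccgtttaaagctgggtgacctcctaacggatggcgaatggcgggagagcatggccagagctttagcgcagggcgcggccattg
Eif5a, chr11:69921337-69921636, minus strand: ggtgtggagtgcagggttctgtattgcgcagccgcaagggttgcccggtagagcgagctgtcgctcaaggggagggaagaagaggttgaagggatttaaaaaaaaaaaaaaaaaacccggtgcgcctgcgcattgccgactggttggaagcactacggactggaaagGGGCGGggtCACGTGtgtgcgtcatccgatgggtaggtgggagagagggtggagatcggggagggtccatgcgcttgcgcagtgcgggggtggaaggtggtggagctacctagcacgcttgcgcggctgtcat

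The E-box letters were found in 1 of the 8 windows, the Sms window above, 196 bases before the start, and in 7.15% of the 32851 windows of the table. They were found in 3 of the 6 Eif5a windows, which overlap in part. In the one shown they lie 74 bases before the start, and the same site is counted again in an overlapping window. The windows of Amd1 and Dhps, which rose by 24 h, held no E-box letters, and that of Oaz1, which fell, held no GC box letters. GC box letters were found in 5 of the 8 windows and in 35.7% of all windows, with 4 matches in the Odc1 window and 6 in the Smox window. Sms has another window, chrX:157491319-157491618, not shown, with 4 GC box matches and no E-box letters. A match describes the letters of a window and not the binding of a factor, and sequence outside the windows was not searched.

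Srm encodes spermidine synthase (ENSMUSG00000006442, chr4:148591503-148594993, plus strand, GRCm38). It rose more than any of the other 8 genes. In WT cells it stood at 12.3, 18.6 and 15.4 CPM in mice 1, 3 and 4 at 0 h, at 134, 160 and 91.2 CPM at 3 h, at 267, 332 and 283 CPM at 6 h, and at 569, 591 and 566 CPM at 24 h. Each time lay wholly above the one before it. The log2 fold change against 0 h at 3 h was 3.06 ± 0.25 (SE, adjusted p = 1.29e-08), that at 6 h 4.25 ± 0.26 (adjusted p = 8.31e-11), and that at 24 h 5.22 ± 0.27 (adjusted p = 6.45e-13), a 37.3-fold rise. The Aim2-/- cells had Srm at 21.5, 17.4 and 19.2 CPM in mice 1, 2 and 4 at 0 h, at 73.5, 125 and 145 CPM at 3 h, at 156, 245 and 249.9 CPM at 6 h, and at 427, 590.4 and 524 CPM at 24 h. The lowest value at each stimulated time was that of mouse 1. The log2 changes were 2.56 ± 0.24, 3.49 ± 0.25 and 4.73 ± 0.26, with adjusted p of 1.53e-07, 1.11e-09 and 2.70e-12, and the last was 26.5-fold.

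Odc1 (ENSMUSG00000011179, chr12:17544794-17551505, plus strand) encodes ornithine decarboxylase, which catalyses the first committed step and is a textbook target gene of Myc. Its message fell. In WT cells it stood at 688, 688 and 814 CPM in mice 1, 3 and 4 at 0 h, at 546, 532 and 512 CPM at 3 h, at 353, 329 and 372 CPM at 6 h, and at 351, 328 and 303 CPM at 24 h. All stimulated WT libraries lay below all unstimulated WT ones, and the 6 h and 24 h groups overlapped. The log2 change at 3 h was -0.46 ± 0.11 (adjusted p = 0.00304), at 6 h it had reached -1.05 ± 0.11 (adjusted p = 1.21e-07), and at 24 h it was -1.16 ± 0.11 (adjusted p = 9.48e-09), a 2.23-fold lower share. Without WT mouse 4 the adjusted p at 3 h was 0.0534.

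In Aim2-/- cells Odc1 stood at 1047, 841 and 984 CPM in mice 1, 2 and 4 at 0 h, at 920, 646 and 878 CPM at 3 h, at 506, 466 and 476 CPM at 6 h, and at 335, 364 and 344 CPM at 24 h. The 0 h and 3 h groups overlapped, and the 6 h and 24 h groups lay below both. The log2 change at 3 h was -0.23 ± 0.11 and did not pass the test (adjusted p = 0.128, and 0.0464 without the 3 h library of mouse 1), while those at 6 and 24 h were -0.99 ± 0.11 (adjusted p = 4.06e-07) and -1.46 ± 0.11 (adjusted p = 3.62e-10). Odc1 continued to fall from 6 to 24 h in Aim2-/- cells by 0.47 ± 0.11 on the log2 scale (adjusted p = 0.00136), and in WT cells the change over the same interval was -0.10 ± 0.11 (adjusted p = 0.448). Whether the genotypes differed over this interval was not tested. Their changes from 0 to 24 h differed by -0.31 ± 0.16, which did not pass the test (adjusted p = 0.455). All 6 mice were lower at each of the 3 times than at 0 h, by 0.16 to 0.67 at 3 h and 0.97 to 1.65 at 24 h in log2 CPM.

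Myc itself, the transcription factor, rose in the same cells. It went from 79.9, 76.4 and 77.0 CPM at 0 h in WT mice 1, 3 and 4 to 588, 706 and 718 CPM at 24 h, a log2 change of 3.11 ± 0.21 (adjusted p = 2.05e-11). Over the 24 libraries the log2 CPM of Srm had a Pearson r of 0.96 with Myc, and that of Odc1 a Pearson r of -0.81. These are descriptions of libraries that share 6 mice and a time course, not tests.

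Amd1 (ENSMUSG00000075232, chr10:40287458-40302186, minus strand) encodes AdoMet decarboxylase, which provides the aminopropyl groups. It dipped before it rose. In WT mice 1, 3 and 4 it stood at 21.7, 24.8 and 24.3 CPM at 0 h, at 14.5, 18.7 and 16.0 CPM at 3 h, at 24.7, 32.2 and 25.7 CPM at 6 h, and at 57.1, 61.1 and 51.6 CPM at 24 h. The 3 h group lay wholly below and the 24 h group wholly above the unstimulated one. The log2 change was -0.53 ± 0.15 at 3 h (adjusted p = 0.0102), 0.22 ± 0.15 at 6 h (adjusted p = 0.229) and 1.26 ± 0.15 at 24 h (adjusted p = 1.63e-07). The Aim2-/- cells followed with -0.49 ± 0.15 at 3 h (adjusted p = 0.0168), 0.12 ± 0.15 at 6 h (adjusted p = 0.534) and 1.15 ± 0.15 at 24 h (adjusted p = 6.72e-07). All 6 mice were lower at 3 h and higher at 24 h, but the 3 h call was lost without the mouse labelled WT 1 (adjusted p = 0.0688), WT mouse 4 (0.0767), Aim2-/- mouse 1 (0.109) or Aim2-/- mouse 2 (0.0862), each in its own genotype.

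Sms (ENSMUSG00000071708, chrX:157443855-157492287, minus strand) encodes spermine synthase. In WT mice 1, 3 and 4 it stood at 32.1, 29.2 and 27.6 CPM at 0 h and at 49.8, 47.3 and 48.8 CPM at 24 h. In Aim2-/- mice 1, 2 and 4 it went from 21.9, 21.1 and 26.6 CPM to 60.9, 41.8 and 55.0 CPM. The unstimulated and 24 h groups did not overlap in either genotype, and the unstimulated Aim2-/- mice lay below the unstimulated WT mice. The log2 change at 24 h was 0.71 ± 0.14 (adjusted p = 0.000125) in WT and 1.18 ± 0.14 (adjusted p = 2.37e-07) in Aim2-/- cells. At 6 h it was 0.50 ± 0.14 (adjusted p = 0.00565) in Aim2-/- cells and 0.14 ± 0.14 (adjusted p = 0.446) in WT cells. The 3 h value in WT cells was -0.31 ± 0.14 (adjusted p = 0.107), and with mouse as a block it passed the test (-0.31 ± 0.11, adjusted p = 0.0294). The lower unstimulated level in Aim2-/- mice did not pass the test, at -0.35 ± 0.14 (adjusted p = 0.135), and was -0.29 ± 0.15 without the mouse labelled WT 1 (adjusted p = 0.271).

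Among genes of polyamine breakdown, Smox and Sat1 had fallen by 24 h, but Paox rose. Paox is named here after its values were seen. Its log2 change at 24 h was 1.78 in WT cells (adjusted p = 3.29e-08) and 2.17 in Aim2-/- cells (adjusted p = 2.38e-09). Smox (ENSMUSG00000027333, chr2:131491496-131525922, plus strand), the spermine oxidase that returns spermine to spermidine, stood at 81.4, 103 and 113 CPM in WT mice 1, 3 and 4 at 0 h, at 79.3, 89.3 and 66.9 CPM at 3 h, at 43.9, 42.1 and 32.5 CPM at 6 h, and at 13.2, 11.5 and 13.1 CPM at 24 h. The 3 h group overlapped the unstimulated one and the later groups lay below it. Its log2 change at 3 h was -0.34 ± 0.19 (adjusted p = 0.199, and 0.0448 with mouse as a block), falling to -1.33 ± 0.20 (adjusted p = 8.12e-06) by 6 h and to -2.97 ± 0.21 (adjusted p = 6.88e-11) by 24 h, a 7.85-fold lower share. In Aim2-/- cells the 24 h values were 20.7, 11.9 and 17.3 CPM in mice 1, 2 and 4, and the changes at 6 and 24 h were -1.02 ± 0.19 (adjusted p = 0.000164) and -2.62 ± 0.21 (adjusted p = 4.35e-10).

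Sat1 (ENSMUSG00000025283, chrX:155213132-155216449, minus strand), the acetyltransferase that starts polyamine breakdown and export, held its level at first. It stood at 138, 114 and 111 CPM in WT mice 1, 3 and 4 at 0 h, at 140.1, 134 and 132 CPM at 3 h, at 82.4, 90.1 and 88.6 CPM at 6 h, and at 49.5, 50.95 and 48.6 CPM at 24 h. The groups at 0 h and 3 h overlapped, and the values at 24 h spread over under 3 CPM. The log2 change at 3 h was 0.16 ± 0.10 (adjusted p = 0.206), followed by -0.47 ± 0.10 (adjusted p = 0.000294) by 6 h and -1.28 ± 0.10 (adjusted p = 1.95e-10) by 24 h. The Aim2-/- change at 3 h was -0.02 ± 0.10 (adjusted p = 0.906), then -0.43 ± 0.10 (adjusted p = 0.000731) and -1.12 ± 0.10 (adjusted p = 1.90e-09). Scaling to library totals turned the sign of the 3 h value in Aim2-/- cells.

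Oaz1 and Azin1 act against each other on ornithine decarboxylase: antizyme sends the enzyme to the proteasome, and antizyme inhibitor, which resembles the enzyme but lacks its activity, binds antizyme away. Oaz1 (ENSMUSG00000035242, chr10:80826656-80829290, plus strand) changed least at 24 h, and its fall came early. In WT mice 1, 3 and 4 it went from 59.5, 62.1 and 61.4 CPM at 0 h to 52.0, 49.98 and 43.3 CPM at 24 h, and in Aim2-/- mice 1, 2 and 4 from 66.0, 59.2 and 57.5 CPM to 49.8, 46.5 and 52.3 CPM. The groups did not overlap in either genotype, and the log2 changes were -0.33 ± 0.09 (adjusted p = 0.00195) and -0.30 ± 0.09 (adjusted p = 0.00475). Without Aim2-/- mouse 1 the adjusted p of the latter was 0.0600. At 3 h the Aim2-/- mice had 47.4, 45.8 and 49.3 CPM, a change of -0.36 ± 0.09 (adjusted p = 0.00350, and 0.0586 without mouse 1), and the WT change was -0.11 ± 0.09 (adjusted p = 0.376). By 6 h the falls were -0.36 ± 0.09 in WT (adjusted p = 0.00144) and -0.49 ± 0.09 in Aim2-/- cells (adjusted p = 8.18e-05), both larger in size than at 24 h. From 6 to 24 h the changes of 0.03 ± 0.09 in WT (adjusted p = 0.777) and 0.19 ± 0.09 in Aim2-/- cells (adjusted p = 0.0695) did not pass the test.

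Azin1 (ENSMUSG00000037458, chr15:38487427-38519266, minus strand) stood at 168, 123 and 128 CPM in WT mice 1, 3 and 4 at 0 h, at 117, 111 and 110.0 CPM at 3 h, at 159, 147 and 153 CPM at 6 h, and at 229.8, 233 and 213 CPM at 24 h. It was lower at 3 h by 0.31 ± 0.10 on the log2 scale (adjusted p = 0.0157) and higher at 24 h by 0.69 ± 0.10 (adjusted p = 1.40e-06). The 3 h call was lost without the mouse labelled WT 1 (adjusted p = 0.184), whose unstimulated value was the highest of the 3, and with scaling to library totals (0.132). At 6 h the change was 0.13 ± 0.09 (adjusted p = 0.258), and 0.26 without the mouse labelled WT 1 (adjusted p = 0.0348). In Aim2-/- mice 1, 2 and 4 Azin1 went from 153, 131 and 139 CPM at 0 h to 171, 195 and 176 CPM at 24 h, with a log2 change of 0.36 ± 0.09 (adjusted p = 0.00224, and 0.0691 without mouse 2). In both genotypes the 24 h values lay above all unstimulated ones.

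Dhps (ENSMUSG00000060038, chr8:85071757-85075162, plus strand), the first of the hypusination enzymes, rose steadily. In WT mice 1, 3 and 4 it stood at 38.0, 38.6 and 42.8 CPM at 0 h, at 53.0, 53.8 and 47.9 CPM at 3 h, at 55.7, 66.2 and 58.2 CPM at 6 h, and at 82.6, 80.8 and 79.4 CPM at 24 h. No stimulated library overlapped the unstimulated ones. The log2 change at 3 h was 0.37 ± 0.09 (adjusted p = 0.00244), growing to 0.59 ± 0.09 (adjusted p = 8.87e-06) by 6 h and to 1.02 ± 0.09 (adjusted p = 1.36e-09) by 24 h, with the 3 h call lost without the mouse labelled WT 1 (adjusted p = 0.0545) or WT mouse 3 (0.0821). For the Aim2-/- cells it was 0.14 ± 0.09 at 3 h (adjusted p = 0.273), then 0.49 ± 0.09 (adjusted p = 8.71e-05) and 0.91 ± 0.09 (adjusted p = 1.04e-08).

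The partners of Dhps moved the same way. Eif5a, the translation factor that carries hypusine, went from 311, 345 and 314 CPM in WT mice 1, 3 and 4 at 0 h to 2265, 2336 and 2194 CPM at 24 h. Its log2 change at 3 h was 0.82 ± 0.15 (adjusted p = 0.000238), growing to 1.96 ± 0.16 (adjusted p = 1.88e-09) by 6 h and to 2.81 ± 0.16 (adjusted p = 2.51e-12) by 24 h. Dohh, the hydroxylase that completes the modification, went from 11.9, 13.0 and 14.4 CPM to 36.3, 35.6 and 40.0 CPM, and its log2 change of 0.20 ± 0.20 at 3 h did not pass the test (adjusted p = 0.497), while 0.76 ± 0.20 at 6 h (adjusted p = 0.00302) and 1.51 ± 0.20 at 24 h (adjusted p = 7.94e-07) did. In Aim2-/- cells the 24 h changes were 2.43 ± 0.16 for Eif5a (adjusted p = 2.28e-11) and 1.56 ± 0.20 for Dohh (adjusted p = 5.46e-07). Without WT mouse 3 the adjusted p of Dohh at 6 h was 0.110.

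Of 28 other genes of the pathway 22 were tested, and at 24 h in WT cells 17 rose and 4 fell, where 36.6% and 34.8% of all genes did. The counts in Aim2-/- cells were 15 and 4, where 36.8% and 33.5% of all genes did. In WT cells all 3 tested genes of the hypusine list rose, from 0.45 for Eif5a2 to 2.81 for Eif5a in log2 change, and in Aim2-/- cells 2 of the 3 did. The log2 changes that follow are also those of WT cells. Of the 7 genes of the methionine cycle and salvage, which supply and recycle the aminopropyl donor, 6 rose and 1 fell. The largest rise was that of Mtap, the phosphorylase that clears the by-product of spermidine and spermine synthesis, at 2.36 ± 0.21 (adjusted p = 2.37e-09), and the fall was that of Mat2b, a subunit of methionine adenosyltransferase, at -1.11 ± 0.08 (adjusted p = 1.26e-10). Of 9 genes of ornithine and arginine supply 6 were tested, and 4 rose and 1 fell in WT cells, beside 3 and 1 in Aim2-/- cells. Slc7a2, a transporter of cationic amino acids, had the largest fitted rise, but stood at 0.0341 ± 0.0295 CPM (SD, n = 3) at 0 h and 0.443 ± 0.164 CPM at 24 h, the first below the 3 counts taken as the floor, so no fold is given. Slc3a2, the heavy chain of several amino acid transporters, fell by 0.35 ± 0.11 on the log2 scale (adjusted p = 0.00544).

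**Figure D2:**
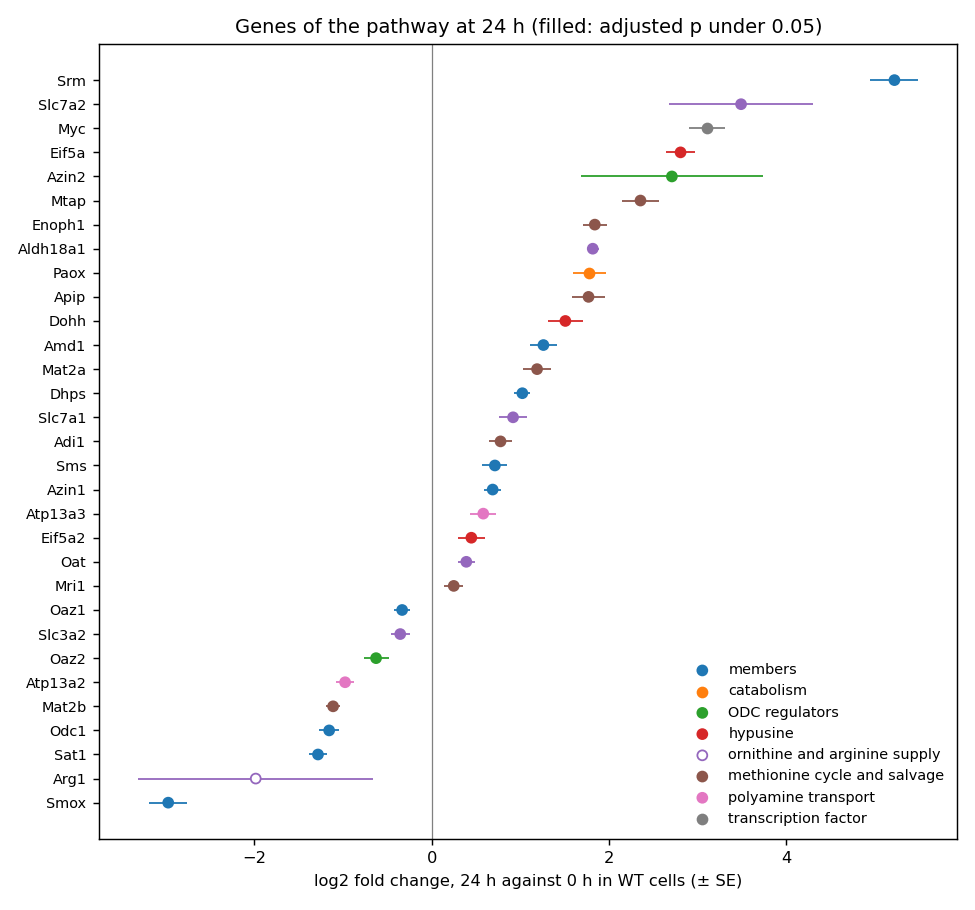
Log2 fold change at 24 h against 0 h in WT cells (horizontal axis, bars of 1 SE) for the 9 genes and the 22 other tested genes of the pathway (vertical axis, sorted), coloured by list and filled where the adjusted p is under 0.05. Srm lies at one end with 5.22 and Smox at the other with -2.97. Azin2, Slc7a2 and Arg1 have long bars at low counts.

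Per length of exon sequence, taken as the union of all annotated exons of a gene, the order of the 9 genes turned over. For Oaz1 that union held 2558 bases, nearly the whole locus, so places relative to other genes depend on the annotation. At 0 h in WT cells Odc1 led with 214 CPM per kb (202 to 239 in the 3 mice), followed by Sat1 with 43.6, and Srm was seventh of the 9 with 9.64 CPM per kb. At 24 h Srm led with 360 CPM per kb (354 to 370), and Odc1 followed with 96.2 (89.1 to 103). Smox moved from the third place with 25.4 to the last with 3.24 CPM per kb. Smox, Oaz1 and Azin1 overlapped as neighbours at 0 h, as did Azin1 and Dhps, and Oaz1 and Sat1, at 24 h. Among Aim2-/- libraries Odc1 also led at 0 h with 281 CPM per kb and Srm at 24 h with 321, and the 2 genes overlapped at 6 h, with 142 for Odc1 and 136 for Srm.

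The levels of some of the genes carry uncertainty from similar sequence. Of the 51-base stretches of each gene's exons, 77.9% of those of Amd1 occurred also in another annotated gene, mostly Amd2, as did 24.0% for Odc1, 20.8% for Oaz1 and 17.4% for Sms, and at most 4.81% for the other 5 genes. Little was counted on the copies: Amd2 held 0.731% of the summed counts of Amd1, and Oaz1-ps 4.00% of those of Oaz1. Dhps shares its locus with Wdr83 on the opposite strand, chosen after its values were seen, which held 50.6% of the summed counts of Dhps and changed by 0.25 ± 0.10 in log2 at 24 h in WT cells (adjusted p = 0.03499). How reads that match more than 1 gene, or either strand, were counted is not given in the sources used here.

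Between the genotypes as labelled, Odc1 was called at 0, 3 and 6 h, with higher values in Aim2-/- cells. Every Aim2-/- mouse lay above every WT mouse at 0, 3 and 6 h, with the values given above, and the groups overlapped at 24 h. The log2 difference in unstimulated cells was 0.39 ± 0.11 (adjusted p = 0.0469), that at 3 h 0.62 ± 0.11 (adjusted p = 0.0235), that at 6 h 0.46 ± 0.11 (adjusted p = 0.0160), and that at 24 h 0.09 ± 0.11 (adjusted p = 0.700). In all, 1 of the 9 genes was called in unstimulated cells, 1 after 3 h, 2 after 6 h and 0 after 24 h, where 5.23%, 0.294%, 15.8% and 0.666% of all genes tested were called. In the 24 h comparison 1 of the 9 had an unadjusted p under 0.05 by edgeR, DESeq2 called 1 and limma-voom 0.

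The Odc1 calls rested on few mice. Without the mouse labelled WT 1 the unstimulated difference was 0.35 (adjusted p = 0.129), while those at 3 and 6 h, 0.64 (adjusted p = 0.0203) and 0.46 (adjusted p = 0.0408), still passed. Without Aim2-/- mouse 1 the adjusted p was 0.210, 0.117 and 0.0689 at the 3 times, without Aim2-/- mouse 4 it was 0.155, 0.156 and 0.0606, without WT mouse 3 it was 0.268, 0.246 and 0.122, and without WT mouse 4 it was 0.101, 0.184 and 0.0640. Without Aim2-/- mouse 2, the lowest of its group at each of these times, it was 0.00425, 0.00115 and 0.00179. Leaving out single libraries, some of them from other times, also ended the call in unstimulated cells. With a mouse left out, the difference stayed positive, between 0.31 and 0.76. With mouse as a random block it was 0.39, 0.60 and 0.46, with adjusted p of 0.0395, 0.0105 and 0.0100. Fitted to only the libraries compared, it failed the test at 0 h (adjusted p = 0.0913) and at 3 h (adjusted p = 0.299).

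The other gene called was Azin1 at 6 h, where the Aim2-/- mice 1, 2 and 4 had 121, 126 and 130.4 CPM and the WT mice 159, 147 and 153 CPM. The groups did not overlap, and the log2 difference was -0.28 ± 0.09 (adjusted p = 0.0475). It failed the test without any one of the 6 mice, with adjusted p from 0.0552 to 0.174, and with scaling to library totals (adjusted p = 0.111). Without the mouse labelled WT 1 the 6 h difference was -0.26 (adjusted p = 0.0594). At 24 h the difference was -0.32 ± 0.09 (adjusted p = 0.0943), again with no overlap, and it passed the test by DESeq2 (adjusted p = 0.0191) and without Aim2-/- mouse 2 (adjusted p = 0.0228). Without the mouse labelled WT 1 it was -0.30 and did not pass (adjusted p = 0.0941). Across the 4 times the differences of the 9 genes ranged from -0.44 to 0.62.

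Of the marker lists of other cells, those of myeloid and B cells did not overlap between the genotypes at any time. The 6 myeloid markers (Lyz2, Csf1r, Itgam, S100a8, S100a9 and Cd14) summed to between 94.7 and 343 CPM in Aim2-/- and between 25.8 and 50.2 CPM in WT mice at 0 h, and to between 48.2 and 199 and between 15.3 and 37.8 CPM at 6 h. The 6 B cell markers summed to between 5.64 and 46.4 CPM in all Aim2-/- libraries and between 4.00 and 12.7 CPM in WT, while the groups overlapped at 1 time or more for the 6 erythroid markers, with sums between 12.8 and 498 and between 7.52 and 71.8 CPM, and for the 3 NK markers, with sums between 2.22 and 26.4 and between 3.34 and 22.2 CPM. No listed marker was at 0 in all libraries. Aim2-/- mouse 1 had the highest myeloid, erythroid and B cell sums of all mice at 0 h and at 6 h, with 199, 498 and 46.4 CPM at 6 h. The part of these cells in the differences of Odc1 and Azin1, and in that of Srm below, was not tested.

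**Figure D3:**
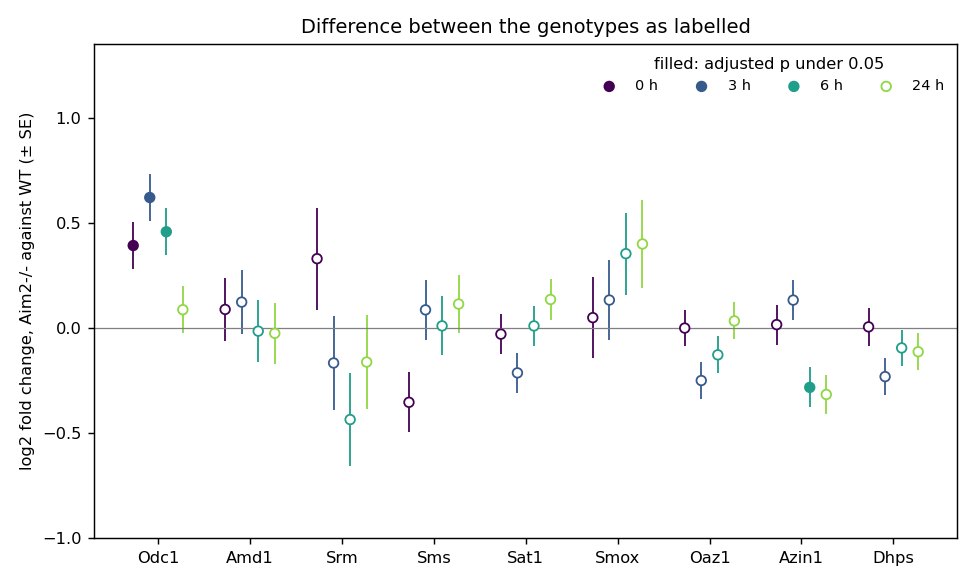
Log2 fold change of Aim2-/- against WT cells (vertical axis, bars of 1 SE) for the 9 genes (horizontal axis) at 0, 3, 6 and 24 h, filled where the adjusted p is under 0.05. Odc1 at 0, 3 and 6 h (0.39, 0.62 and 0.46) and Azin1 at 6 h (-0.28) are filled.

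The response to stimulation was then compared between the genotypes. None of the 9 genes was called at 3, 6 or 24 h by edgeR, DESeq2 or limma-voom, while 1, 2 and 2 had an unadjusted p under 0.05 by edgeR, and 0%, 0.0261% and 0% of all genes tested were called. With mouse as a block the counts of the 9 genes were also 0, where 0.0587%, 4.68% and 2.77% of all genes were called. The largest difference was that of Srm at 6 h, whose rise was smaller in Aim2-/- cells by -0.77 ± 0.33 in log2 (adjusted p = 0.312, and -0.82 ± 0.24 with adjusted p = 0.0573 with the block). It was -0.50 without Aim2-/- mouse 1, whose rise was the smallest, -0.69 without the mouse labelled WT 1 (adjusted p = 0.532) and -0.94 without Aim2-/- mouse 2. In a fit chosen after seeing the data, with the block and without the mouse labelled WT 1, it was -0.75 ± 0.27 (adjusted p = 0.135), and 1 of the 9 genes was called, Azin1 at 24 h, whose rise was smaller in Aim2-/- cells by -0.47 ± 0.12 (adjusted p = 0.0368). The per-mouse rises at 6 h were 4.44, 4.16 and 4.20 in WT mice 1, 3 and 4 and 2.86, 3.82 and 3.70 in Aim2-/- mice 1, 2 and 4, and did not overlap.

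Of the 22 other tested genes of the pathway, 0 differed in their response at 3 h, 5 at 6 h and 1 at 24 h with the block, where 0.0587%, 4.68% and 2.77% of all genes did. Without the block 0 differed at 6 h, and 8 had an unadjusted p under 0.05. The 5 were Myc with -0.84 ± 0.18 (adjusted p = 0.0156), Slc3a2 with -0.55 ± 0.14 (adjusted p = 0.0317) and, named after their values were seen, Mat2a with -0.68 ± 0.17 (adjusted p = 0.0293), Aldh18a1 with -0.36 ± 0.10 (adjusted p = 0.0412) and Slc7a1 with -0.66 ± 0.19 (adjusted p = 0.0468). Mat2a encodes the catalytic subunit of methionine adenosyltransferase, Aldh18a1 an enzyme on the route from glutamate to proline and ornithine, and Slc7a1 a transporter of arginine. Without the mouse labelled WT 1 Myc kept its call with the block (-0.96 ± 0.21, adjusted p = 0.0210), and the other 4 had an adjusted p between 0.0506 and 0.121. The gene called at 24 h was Aldh18a1 (-0.45 ± 0.10, adjusted p = 0.0205, and 0.0368 without that mouse). All 5 called differences at 6 h were negative, but over the 22 genes there was no common direction. Without the block their differences at 6 h had a median of -0.03 and ranged from -0.82 to 0.56. The share of negative differences among all genes called with the block is not given here. Srm did not pass the test in that fit.

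The genes whose course was most like each of the 9 were found by Pearson r of log2 CPM over the 24 libraries, among 9599 genes with a mean of at least 5 CPM. For Odc1 they were Dnajc12 (0.95), Ostf1 (0.95) and Selenon (0.95), all lower at 24 h, with Ostf1 going from 285 to 82.6 CPM in WT cells. For Srm it was Lap3 with r of 0.998, going from 14.5 to 195 CPM in WT cells. For the others it was Rcc2 with Amd1 (0.98), Phf14 with Sms (0.96), Stk25 with Sat1 (0.97), Fchsd1 with Smox (0.98), Arl8b with Azin1 (0.95) and Mrrf with Dhps (0.98). Oaz1 had the lowest best value, 0.85 with Actr5. Among the 9 genes, Sat1 and Smox (0.95), Srm and Dhps (0.92) and Amd1 and Sms (0.91) ran together, and Smox and Dhps (-0.93) ran in opposite directions. These values describe libraries that share mice, times and depth.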

How the data were processed

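Stranded mRNA libraries of CD4+ T cells were sequenced by the study. Per the labels the authors aligned reads with STAR to GRCm38, and they deposited raw, unnormalized read counts per Ensembl gene in 24 libraries. The counter, its use of strand and its treatment of reads with several matches are not given in the sources used here. Symbols, positions and exon lengths came from a GENCODE annotation of GRCm38, which matched 54409 of 54446 identifiers, and promoter windows from RefSeq (GRCm38.p6).

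Counts of all genes were fitted with edgeR 4.0.16 in R 4.3.3 (quasi-likelihood F test, two-sided, TMM factors, filterByExpr with a minimum count of 10, 1 mean for each of the 8 groups). Benjamini-Hochberg adjustment of the p values ran over the 15325 genes tested within each comparison, and a gene is called at an adjusted p under 0.05. Standard errors are derived from the fit. The common biological coefficient of variation was 18.6%. Comparisons were stimulated against unstimulated cells, 3 against 6 h, 6 against 24 h, Aim2-/- against WT at each time, and the interaction of both. CPM were scaled by TMM, with a prior count of 2 in log2 CPM. The floor of detection was 3 counts a library, from 0.139 to 0.152 CPM, and covers counting error only. The p values rest on a spread estimated over all 8 groups and drawn towards that of other genes, with the libraries of a mouse treated as independent. They do not measure the spread of the 3 mice of a group alone. The steps were tested on simulated counts with the same spread for all genes, known changes in WT cells at 24 h only and no effect of mouse. That test does not bear on the pairing of libraries or on differences between the genotypes.

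Each mouse gave cells at all 4 times per the labels, so its libraries are paired. After the group means were taken off, log2 CPM correlated with r from 0.139 to 0.567 in the 36 pairs of libraries of a mouse and from -0.432 to 0.0742 in 72 pairs of different mice. The model reported has no block, and the blocked value stands beside a result it alters.

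Alternatives were RLE size factors (the scaling of DESeq2), library totals only, DESeq2 1.42.0, limma-voom (limma 3.58.1), no filter, a filter at a mean of 1 CPM, a fit to just those libraries that enter a comparison, a block for mouse, and each library and each mouse left out. A fit with the block and without the mouse labelled WT 1 was added after seeing the data, for the differences in response. The genes named are the 9 genes, Eif5a, Dohh, Myc, Aim2, the copies Amd2 and Oaz1-ps, the largest called rise and fall of each pathway list with at least 3 tested genes at 24 h in WT cells, and for each of the 9 genes the most alike gene (3 for Odc1). Genes named outside this rule are marked in the text. The 9 genes, the lists and the rule were chosen with earlier results of these data known. The study's RNA sequencing of naive and Treg-polarized cells is a different experiment and is not used here.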

Additional observations from a re-analysis of the deposited data

Results flagged for a closer look

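The response of Sms, the spermine synthase gene, at 3 h went in opposite directions in the mice of the 2 genotypes. The 3 WT mice were lower at 3 h than at 0 h, with log2 CPM changes of -0.56, -0.15 and -0.22 in mice 1, 3 and 4, and the 3 Aim2-/- mice were higher, with 0.11, 0.13 and 0.15 in mice 1, 2 and 4. The difference of the responses was 0.44 ± 0.20 in log2 by edgeR, which did not pass the test (unadjusted p = 0.0407, adjusted p = 1.00), nor did it with mouse as a block (0.44 ± 0.16, adjusted p = 0.475). Without the mouse labelled WT 1, whose change was the largest and whose Aim2 level goes against its label, it was 0.31 (adjusted p = 1.00). At 24 h the same difference was 0.47 ± 0.20 (adjusted p = 0.353), 0.42 without that mouse (adjusted p = 0.453) and 0.30 without Aim2-/- mouse 1. The unstimulated Aim2-/- mice had lower Sms than the unstimulated WT mice, at 23.2 ± 2.95 against 29.6 ± 2.29 CPM (SD, n = 3), a difference that did not pass the test (-0.35 ± 0.14, adjusted p = 0.135), and at 3 h the means were 25.4 ± 3.58 and 24.0 ± 2.28 CPM.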

How the results depend on the processing

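Each count of called genes among the 9 was recomputed under 38 alternatives (39 for the differences in response), as were 113 results for single genes. Over the latter, 4159 of 4297 recomputed values kept direction and side of the threshold, 110 lost the threshold, 14 gained it and 14 turned sign, and 80 results kept both throughout. No called result turned sign. The 5 called rises and 4 called falls at 24 h in WT cells were called in all alternatives, and in Aim2-/- cells 8 or 9 genes were called. With only the libraries compared, the Aim2-/- count from 3 to 6 h was 3, and the genotype counts were 0 at 0 h, 0 at 3 h and 1 at 6 h. The genotype count at 0 h was also 0 with RLE size factors and with no filter, at 6 h it was 1 with library totals only and 3 with no filter, where Srm joined (-0.51, adjusted p = 0.0181), and at 24 h 1 with DESeq2. With each library or mouse left out, the WT counts ran from 2 to 5 (3 h), 6 to 7 (6 h), 6 to 8 (3 to 6 h) and stayed at 7 (6 to 24 h). The Aim2-/- counts ran from 1 to 4, 7 to 8, 4 to 7 and 8 to 9, and the genotype counts from 0 to 1 at 0 h, 0 to 1 at 3 h, 0 to 2 at 6 h and 0 to 2 at 24 h. The differences in response stayed at 0 genes, other than 1 gene at 24 h, Azin1, without the mouse labelled WT 1 and with the block, a fit added after seeing the data. With mouse as a replicate block the WT count was 7 at 3 h, where Sms (-0.31, adjusted p = 0.0294) and Smox (-0.34, adjusted p = 0.0448) joined, and the block moved no count of the 9 genes by over 1.5 times.

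Values that turned sign were near 0. Azin1 between the genotypes at 0 h, 0.01 as reported, was -0.0060 with RLE size factors, -0.0058 with DESeq2, -0.016 with no filter and from -0.11 to 0.17 with libraries or mice left out. Sat1 at 3 h in Aim2-/- cells was 0.095 with library totals only and from -0.047 to 0.0062 with mice or libraries left out, and Dohh at 3 h in Aim2-/- cells from -0.086 to 0.31. Scaling to library totals shifted the median gene by 0.11 and 0.09 in WT and 0.12 and 0.12 in Aim2-/- cells at 3 and 6 h, by -0.10 and -0.09 from 6 to 24 h, and by 0.05 between the genotypes at 6 h, and with it Sat1 at 3 h in WT and Dhps at 3 h in Aim2-/- cells passed the test at 0.27 (adjusted p = 0.0463) and 0.25 (adjusted p = 0.0193). The cause of these changes was not tested. Without Aim2-/- mouse 4, or its library at 3 h, the 3 h rise of Eif5a in Aim2-/- cells had an adjusted p of 0.0659 and 0.0716, and the 3 h fall of Oaz1 in Aim2-/- cells had one of 0.0586 without mouse 1. The smaller 3 to 6 h changes of Sms and Oaz1 in WT cells, 0.44 and -0.25, failed the test without any WT mouse, with adjusted p from 0.0503 to 0.212 and from 0.0669 to 0.253.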
